A study of Allium sativum with 18 samples.

Results

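A set of 17 genes, of 57561 in all, had far fewer transcripts under enlarging growth than before enlargement in bulbs of the garlic variety Yuanjiangyangsuan, while their mean levels in bulbs of Ershuizao and Chalingzipisuan were close to equal at both stages. Expression was given as FPKM values (fragments relative to gene length and sequencing depth), and the level of a gene in a library was taken as log2(FPKM + 0.5). A gene was selected when its mean level in Yuanjiangyangsuan was lower by 2 or more under enlarging growth, with every enlarging library below every library before enlargement. The difference also had to be smaller than 0.5 in Ershuizao and in Chalingzipisuan, and the mean FPKM at least 1 over the 6 libraries of each of these varieties. The genes were thus selected on their stage differences in all 3 varieties, which are given as descriptions without a test.

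A garlic bulb is a cluster of cloves, and each clove is a lateral bud whose storage leaf swells. In onion and potato, relatives of *Flowering locus T* carry the day-length signal that starts the growth of the bulb or tuber, and gibberellins hold back tuber formation in potato. The study compared bulbs before and under enlarging growth to find genes that go with the enlargement of cloves. The files pair the identifiers of the 17 genes with no name or function, none of them is among the 14 genes that the study's text names, and no role is given for them here.

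The groups were bulbs of Yuanjiangyangsuan, Ershuizao and Chalingzipisuan under enlarging growth, sampled in March, and bulbs of the same 3 varieties before enlargement, sampled in February. All had been planted on the same farm in the preceding October, and the labels give no other treatment. Each group held 3 individuals, each with a library of its own, which made 18 libraries. Stage and month of sampling cannot be told apart, the labels call the tissue leaf although the stage is that of bulbs, and no marker of either tissue could be checked with unnamed genes. RNA came from parts of whole bulbs, where fewer cells of a type and less RNA per cell cannot be told apart.

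The libraries held 10340511 to 14117986 fragments on genes. In the principal components of all expressed genes, enlarging replicate 3 of Chalingzipisuan stood apart from its group. It lay at 52.1 on the second component, which held 28.2% of the variance, whereas the other enlarging libraries of that variety lay at -106.2 and -88.6 and its libraries before enlargement between 67.3 and 128.0. This library enters the results below and its effect on the 17 genes is given with them. Enlarging replicate 1 of Yuanjiangyangsuan lay at -62.0 on the same component, against -146.5 and -151.1 for replicates 2 and 3. Enlarging replicate 2 of Ershuizao lay at -2.9, against -60.1 and -80.4 for replicates 1 and 3. Both enter the results, and the selection found 32 genes without the former and 12 without the latter, against 17.

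In Yuanjiangyangsuan, the stage difference of the 17 genes ranged from -3.11 to -2 with a median of -2.33 (log2). The median of their group means was an FPKM of 1.56 under enlarging growth and 9.21 before enlargement. For the 14 genes with more than 3 fragments in the enlarging libraries together, the mean FPKM before enlargement was 3.88 to 15.5 times that under enlarging growth. The transcripts were not lost altogether in most genes, since 15 of the 17 kept at least 1 fragment in an enlarging library, and *Asa3G02950.1*, the gene that kept most, had 25.8% of its mean FPKM left. All 17 were also called lower by limma (unadjusted P under 0.05 and a difference above 2-fold), as were 15.6% of the 27673 genes tested, but the rule used this contrast and nothing is read from the count.

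**Figure D1:**
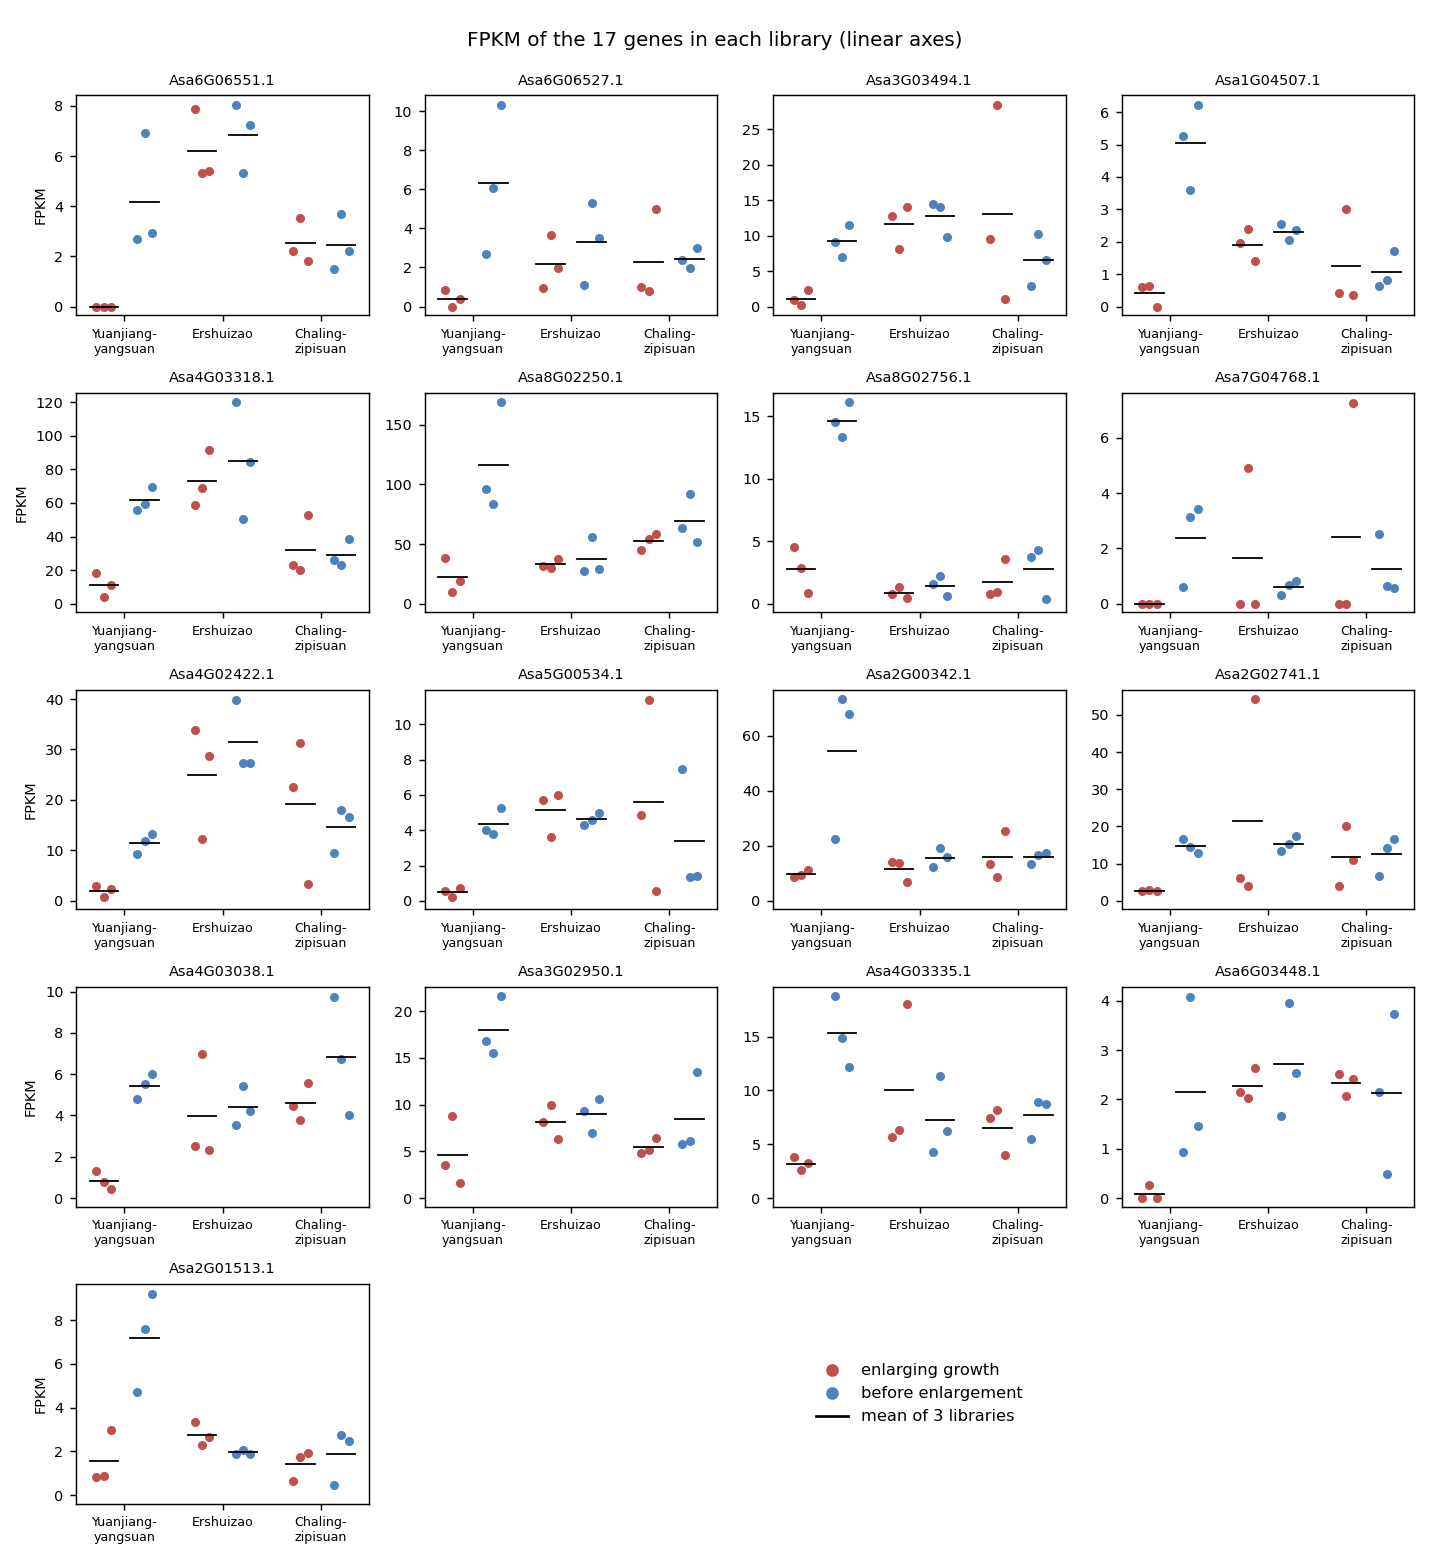
FPKM values (vertical axes, linear, scaled for each gene) of the 17 genes in every library, with enlarging growth in red and before enlargement in blue for Yuanjiangyangsuan, Ershuizao and Chalingzipisuan (3 individuals each), and the mean of each group as a bar. In Yuanjiangyangsuan the red points lie below the blue points for every gene by the choice of the genes, whereas in the other varieties they overlap for all but *Asa2G01513.1* in Ershuizao.

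The 17 genes differed in where the other varieties lay between the stages of Yuanjiangyangsuan. This was measured as the distance of the mean level of the 12 libraries of Ershuizao and Chalingzipisuan from the enlarging level of Yuanjiangyangsuan, as a share of the whole stage difference of Yuanjiangyangsuan. The share was above 0.75 for 8 genes, so that the mean level of the other varieties lay near or above that of Yuanjiangyangsuan before enlargement. It was between 0.25 and 0.75 for 6 genes, and below 0.25 for 3 genes whose level before enlargement was above that of the other varieties. As the mean pools 2 varieties, it need not hold for each. For *Asa4G03318.1* every Chalingzipisuan library (FPKM 20.1 to 52.8) lay below those of Yuanjiangyangsuan before enlargement (55.6 to 69.7).

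The 8 genes of the first kind included the one with the lowest stage difference, *Asa6G06551.1* (-3.11). It had no fragment in any enlarging library of Yuanjiangyangsuan, against FPKM values of 2.68, 6.93 and 2.94 before enlargement. In Ershuizao it had 7.87, 5.33 and 5.42 under enlarging growth, against 8.02, 5.32 and 7.22 before enlargement. In Chalingzipisuan it had 2.22, 3.54 and 1.83 under enlarging growth, against 1.48, 3.68 and 2.22 before enlargement. Thus it was detected in 15 of 18 libraries, all but the 3 enlarging libraries of Yuanjiangyangsuan. As a count of 0 allows up to 3 fragments per library, an FPKM of 0.269 on average, the mean was at least 15.6-fold lower under enlarging growth than before enlargement. Such limits and counting intervals leave out all but counting error, as molecular identifiers are not mentioned in the methods.

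*Asa3G03494.1* had FPKM values of 0.897, 0.147 and 2.28 under enlarging growth in Yuanjiangyangsuan, against 9.13, 7.03 and 11.5 before enlargement. In Ershuizao the values were 12.8, 8.06 and 14.0 under enlarging growth, against 14.5, 14.0 and 9.79 before enlargement, and all of them lay above the enlarging libraries of Yuanjiangyangsuan. Chalingzipisuan was less even. There the gene reached 9.60 and 28.4 in enlarging replicates 1 and 2 but only 1.02 in replicate 3, a value within the range of enlarging Yuanjiangyangsuan, against 2.85, 10.2 and 6.51 before enlargement.

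*Asa4G03318.1* was the most abundant gene of this kind. Its FPKM averaged 11.1 ± 7.02 under enlarging growth and 61.6 ± 7.25 before enlargement in Yuanjiangyangsuan (SD, n = 3 each). The enlarging values of 18, 3.99 and 11.4 lay below all other libraries of the series, although the highest of them came close to the lowest value in Chalingzipisuan (20.1). Both stages averaged more in Ershuizao (73.0 ± 16.9 under enlarging growth and 85.0 ± 34.7 before enlargement) than in Chalingzipisuan (32.0 ± 18 under enlarging growth and 29.1 ± 8.08 before enlargement; SD, n = 3 each).

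*Asa4G02422.1* was the gene whose level in the other varieties most exceeded that of Yuanjiangyangsuan before enlargement, with a share of 1.32. It had FPKM values of 2.94, 0.854 and 2.34 under enlarging growth in Yuanjiangyangsuan, against 9.35, 11.8 and 13.3 before enlargement. The 12 libraries of the other varieties spanned 3.43 to 39.9 with a median of 24.9. Their lowest value was that of enlarging replicate 3 of Chalingzipisuan, whose enlarging replicates 1 and 2 had 22.6 and 31.3.

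The other 4 genes of the first kind were *Asa5G00534.1*, *Asa2G02741.1*, *Asa4G03038.1* and *Asa6G03448.1*. Replicates of *Asa2G02741.1* were close to each other in Yuanjiangyangsuan, with FPKM values of 2.57, 2.82 and 2.73 under enlarging growth against 16.7, 14.5 and 12.8 before enlargement. In Ershuizao under enlarging growth it had 54.2 in replicate 3 but 6.17 and 3.89 in replicates 1 and 2, against 13.3, 15.4 and 17.4 before enlargement, so that the small mean difference of -0.43 was the balance of 1 high and 2 low libraries. *Asa5G00534.1* had a mean FPKM of 0.512 ± 0.279 under enlarging growth and 4.35 ± 0.802 before enlargement in Yuanjiangyangsuan, and *Asa4G03038.1* had 0.830 ± 0.442 under enlarging growth and 5.43 ± 0.617 before enlargement (SD, n = 3 each). *Asa6G03448.1* rested on few fragments, 1 under enlarging growth and 26 before enlargement over the 3 libraries of each stage. The ratio of 26.4 before over under enlarging growth has a 95% counting interval of 4.34 to 1083 (exact Clopper-Pearson), and the FPKM values before enlargement, 0.927, 4.08 and 1.46, overlapped those of 11 of the 12 other libraries or lay below them.

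The 6 genes with the other varieties in between were *Asa6G06527.1*, *Asa1G04507.1*, *Asa8G02250.1*, *Asa7G04768.1*, *Asa3G02950.1* and *Asa4G03335.1*. *Asa6G06527.1* had FPKM values of 0.866, 0 and 0.361 under enlarging growth in Yuanjiangyangsuan, against 2.69, 6.05 and 10.3 before enlargement, and 0.781 to 5.31 over the 12 libraries of the other varieties (median 2.19). *Asa1G04507.1* had 0.594, 0.633 and 0 under enlarging growth in Yuanjiangyangsuan, against 5.28, 3.61 and 6.21 before enlargement. All 12 libraries of the other varieties, with 0.352 to 3.00, lay below its values before enlargement in Yuanjiangyangsuan.

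*Asa8G02250.1* was the most abundant of the 17 genes, with a mean FPKM of 22.2 ± 14.3 under enlarging growth and 116 ± 46.1 before enlargement in Yuanjiangyangsuan (SD, n = 3 each). Its single values there were 38.0, 10 and 18.7 under enlarging growth, against 96.1, 83.5 and 169 before enlargement. In Ershuizao it averaged 32.9 ± 4.04 under enlarging growth and 37.5 ± 15.9 before enlargement, and in Chalingzipisuan 52.4 ± 6.75 under enlarging growth and 69.0 ± 20.6 before enlargement (SD, n = 3 each). Of these 12 libraries 11 lay below the lowest value of Yuanjiangyangsuan before enlargement, and only 7 lay above its highest enlarging value.

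*Asa3G02950.1* had FPKM values of 3.56, 8.74 and 1.6 under enlarging growth in Yuanjiangyangsuan, against 16.8, 15.5 and 21.6 before enlargement. The range in the other varieties, 4.78 to 13.5, lay wholly below the values before enlargement. *Asa4G03335.1* had 3.77, 2.59 and 3.26 under enlarging growth in Yuanjiangyangsuan, against 18.8, 14.9 and 12.2 before enlargement. The 12 other libraries of *Asa4G03335.1* spanned 3.97 to 18 and lay above its enlarging values. *Asa7G04768.1* was barely detected. It had no fragment in the enlarging libraries of Yuanjiangyangsuan, against 2, 10 and 9 fragments before enlargement, and its mean FPKM was at least 2.46-fold lower under enlarging growth. In Ershuizao and Chalingzipisuan the enlarging values of *Asa7G04768.1* came from 1 library each, with FPKM values of 0, 4.92 and 0 and of 0, 0 and 7.28.

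The 3 genes with the other varieties near or below the enlarging level of Yuanjiangyangsuan were *Asa8G02756.1*, *Asa2G00342.1* and *Asa2G01513.1*. The share of *Asa8G02756.1* was -0.256, as the other varieties averaged below that level. *Asa8G02756.1* had FPKM values of 4.53, 2.89 and 0.880 under enlarging growth in Yuanjiangyangsuan, against 14.5, 13.3 and 16.1 before enlargement. The other varieties had at most 4.26, with a median of 1.14, so that the gene was highest in the 3 libraries of Yuanjiangyangsuan before enlargement. *Asa2G00342.1* had 8.83, 9.40 and 11.1 under enlarging growth in Yuanjiangyangsuan, against 22.5, 73.5 and 68.0 before enlargement, and 6.71 to 25.6 in the other varieties. Replicate 1 before enlargement, at 22.5, was exceeded by enlarging replicate 3 of Chalingzipisuan, at 25.6. *Asa2G01513.1* had 0.831, 0.884 and 2.96 under enlarging growth in Yuanjiangyangsuan, against 4.71, 7.59 and 9.21 before enlargement and 0.486 to 3.34 in the other varieties.

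**Figure D2:**
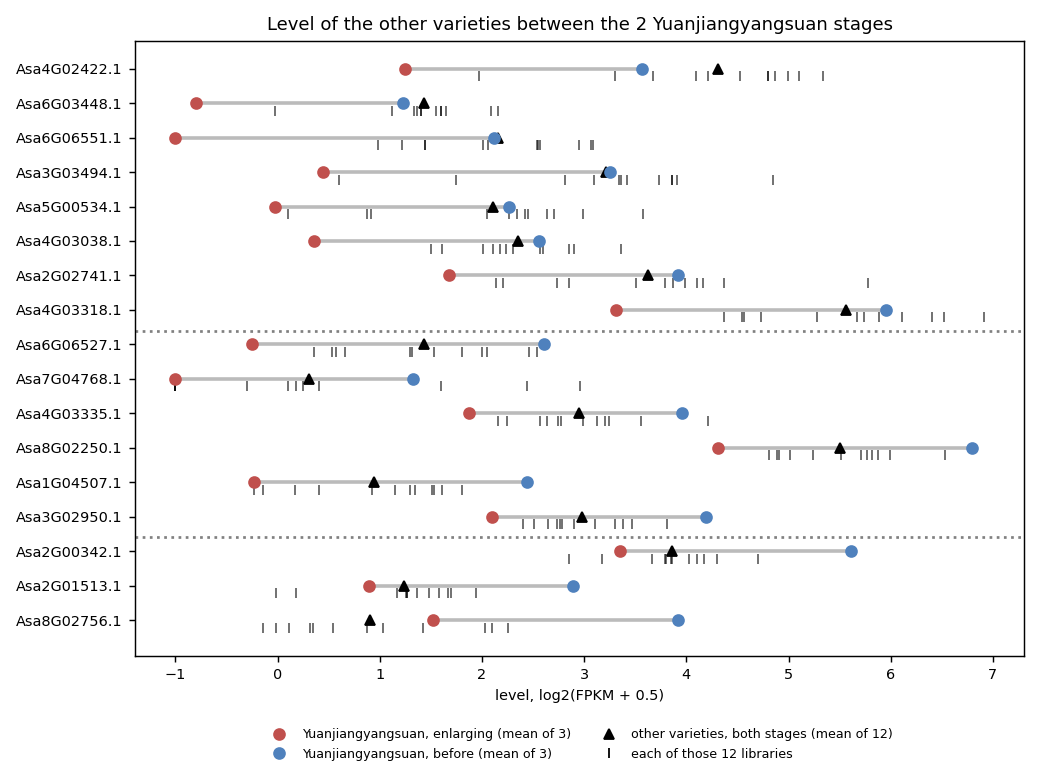
Mean level, log2(FPKM + 0.5) on the horizontal axis, of each gene in Yuanjiangyangsuan under enlarging growth (red, n = 3) and before enlargement (blue, n = 3) and over the 12 libraries of the other varieties (black triangle, each library as a tick). Dotted lines part 3 kinds of genes, from top to bottom. In 8 the other varieties lay near or above the level before enlargement, in 6 between, and in 3 near or below the enlarging level.

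Every enlarging library of Yuanjiangyangsuan lay below all 12 libraries of the other varieties for 7 of the 17 genes, against 8.28% of the 22496 genes with a mean FPKM of at least 1 in each variety. These were *Asa6G06551.1*, *Asa4G03318.1*, *Asa4G02422.1*, *Asa2G02741.1*, *Asa4G03038.1*, *Asa4G03335.1* and *Asa6G03448.1*. Every library of Yuanjiangyangsuan before enlargement lay above all 12 for 4 genes, *Asa1G04507.1*, *Asa8G02756.1*, *Asa3G02950.1* and *Asa2G01513.1*, against 11.3% of those genes. The same libraries of Yuanjiangyangsuan chose the genes, so that both counts are descriptions.

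In Ershuizao the stage differences of the 17 genes ranged from -0.48 to 0.40 (median -0.16), and 13 were below 0. In Chalingzipisuan they ranged from -0.50, just inside the limit, to 0.43 (median -0.21), and 12 were below 0. These small differences of means do not show that the genes kept their level. The 95% interval from limma reached a fall of 2-fold or more for 7 genes in Ershuizao and for 13 in Chalingzipisuan, and a rise of 2-fold or more for 3 genes in Ershuizao and for 9 in Chalingzipisuan. It lay within 2-fold in both directions for 9 genes in Ershuizao but for only 3 in Chalingzipisuan. *Asa2G01513.1* was the single gene whose stages did not overlap in another variety, since its enlarging values in Ershuizao, 3.34, 2.29 and 2.68, exceeded those before enlargement, 1.89, 2.08 and 1.90.

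**Figure D3:**
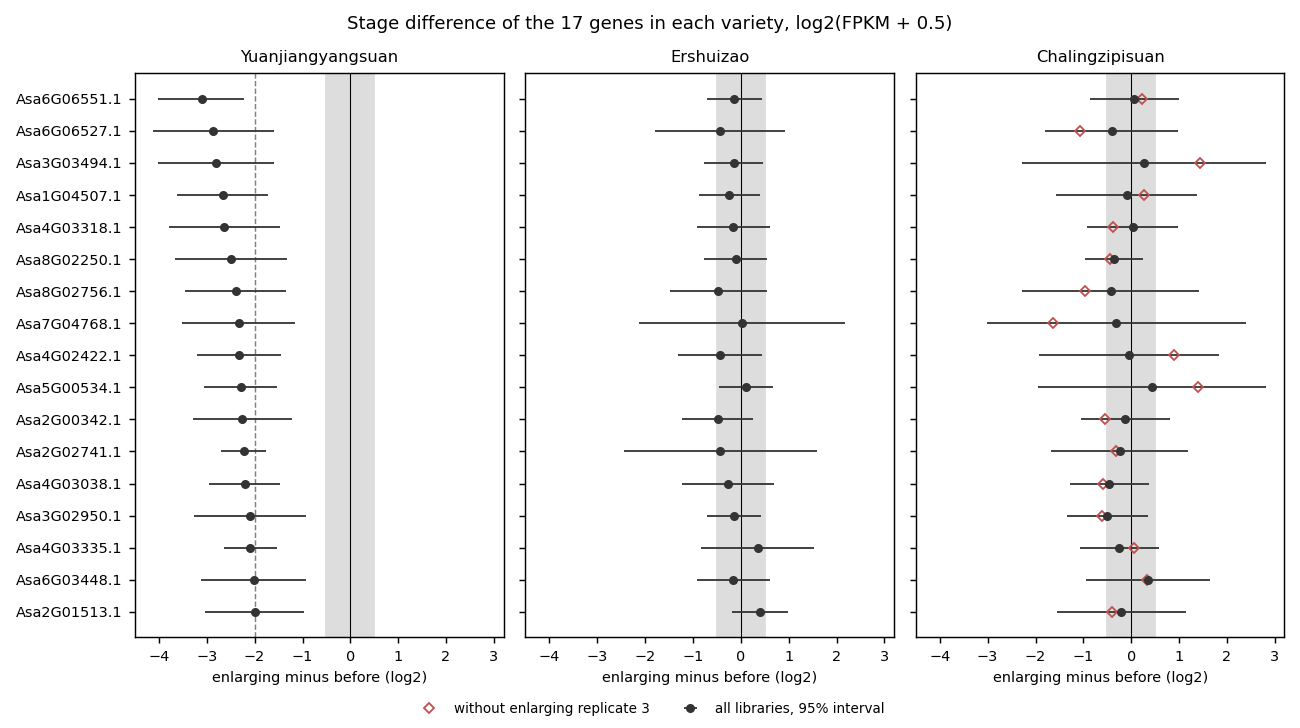
Stage difference of each gene (enlarging minus before, log2(FPKM + 0.5)) with its 95% interval from limma in Yuanjiangyangsuan, Ershuizao and Chalingzipisuan, where the grey band marks the limit of 0.5 and the dashed line the limit of -2 that chose the genes. The open red diamonds in Chalingzipisuan leave out its enlarging replicate 3, and 9 of the 17 then lie outside the band.

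Leaving out enlarging replicate 3 of Chalingzipisuan moved the difference in that variety to 0.5 or beyond for 9 of the 17 genes. It was then higher under enlarging growth for *Asa3G03494.1* (1.43), *Asa5G00534.1* (1.40) and *Asa4G02422.1* (0.89). For *Asa5G00534.1* the single values were 4.84, 11.4 and 0.571 under enlarging growth, against 7.45, 1.34 and 1.39 before enlargement. In these 3 genes replicate 3 was lower than the mean level of enlarging replicates 1 and 2 by more than 2 (log2). The difference was lower for *Asa7G04768.1* (-1.63), *Asa6G06527.1* (-1.08), *Asa8G02756.1* (-0.96), *Asa3G02950.1* (-0.61), *Asa4G03038.1* (-0.59) and *Asa2G00342.1* (-0.54). Without this library the rule found 10 genes, 8 of them among the 17. The part that its position on the second component plays in these values was not tested.

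Replicates of the 17 genes spread more than those of the expressed genes at large, which were not matched for level or length. In enlarging replicates 1, 2 and 3 of Yuanjiangyangsuan, 5, 8 and 6 of the 17 genes had 3 or fewer fragments. These libraries also chose the genes, and the part of these limits in the spread was not tested. The median SD of the level over 3 libraries was 0.67 under enlarging growth and 0.34 before enlargement in Yuanjiangyangsuan, against 0.26 and 0.25 for the 22496 expressed genes. In Ershuizao it was 0.41 under enlarging growth and 0.31 before enlargement, against 0.29 and 0.22. At each stage the spread was widest in Chalingzipisuan, with 0.77 under enlarging growth and 0.59 before enlargement, against 0.36 and 0.29. With 3 libraries per group, P values measure only the spread between these individuals.

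The rule compared neither Ershuizao nor Chalingzipisuan with another variety. Their levels averaged over both stages were tested against each other with limma over all 18 libraries and 33681 genes, where a gene was called at a Benjamini-Hochberg adjusted P under 0.05 and a difference above 2-fold. Of the 17 genes, 2 were called higher and 0 lower in Ershuizao than in Chalingzipisuan, against 0.959% and 0.41% of all genes. The gene sets are unlike, as the 17 needed a mean FPKM of at least 1 in both varieties. All genes tested needed only an FPKM of 0.5 in at least 3 libraries. The median difference was 0.28 for the 17 genes and 0.00 for all genes, and no gene of the 17 that was not called passed adjusted P at a smaller fold. *Asa6G06551.1* was higher in Ershuizao by 1.26 (log2, standard error 0.24, limma adjusted P = 0.0106), and every Ershuizao library exceeded every library of Chalingzipisuan. This call held with each library left out, at adjusted P of 0.00435 to 0.0347. *Asa4G03318.1* was higher by 1.38 (standard error 0.33, limma adjusted P = 0.0356). Its call was lost at adjusted P of 0.0509 to 0.0979 without replicate 2 of Yuanjiangyangsuan before enlargement, any enlarging replicate of Ershuizao, replicate 1 or 3 of Ershuizao before enlargement, replicate 1 or 2 of Chalingzipisuan under enlarging growth or replicate 1 or 2 of Chalingzipisuan before enlargement, although the difference stayed between 1.24 and 1.59 with any library left out. Neither gene was called within 1 stage, although the differences were about as large. *Asa6G06551.1* differed by 1.16 under enlarging growth (limma adjusted P = 0.173) and by 1.36 before enlargement (limma adjusted P = 0.0802). *Asa4G03318.1* differed by 1.29 under enlarging growth (limma adjusted P = 0.304) and by 1.48 before enlargement (limma adjusted P = 0.187).

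Over both stages, Yuanjiangyangsuan differed from the mean of the other varieties by -0.25 at the median of the 17 genes and by -0.04 at that of all genes. The average over both stages of Yuanjiangyangsuan holds the fall that chose the genes, and the minimum FPKM held for the other varieties only, so that these values are a description and no test is read from them. By the same limma thresholds 1 of the 17 genes was higher and 4 were lower, beside 8.91% and 14.6% of all genes tested. *Asa8G02756.1* was higher in Yuanjiangyangsuan by 1.81 (log2), with differences of 0.84 under enlarging growth and 2.79 before enlargement. *Asa4G02422.1* was lower over both stages, at -1.90, with differences of -2.95 under enlarging growth and -0.85 before enlargement. The other 3 lower genes were close to the other varieties before enlargement, and the enlarging libraries made up nearly all of their difference. *Asa6G06551.1* was at -1.60 over both stages, with -3.14 under enlarging growth and -0.06 before enlargement. *Asa3G03494.1* was at -1.37, with -2.80 under enlarging growth and 0.07 before enlargement, and *Asa6G03448.1* was at -1.22, with -2.28 under enlarging growth and -0.16 before enlargement. Of the 17 genes, 13 had a difference of the opposite sign at 1 of the stages. A gene selected for a fall of 2 or more changes sign unless it lies well above or below the other varieties. Nothing is therefore read from this count.

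**Figure D4:**
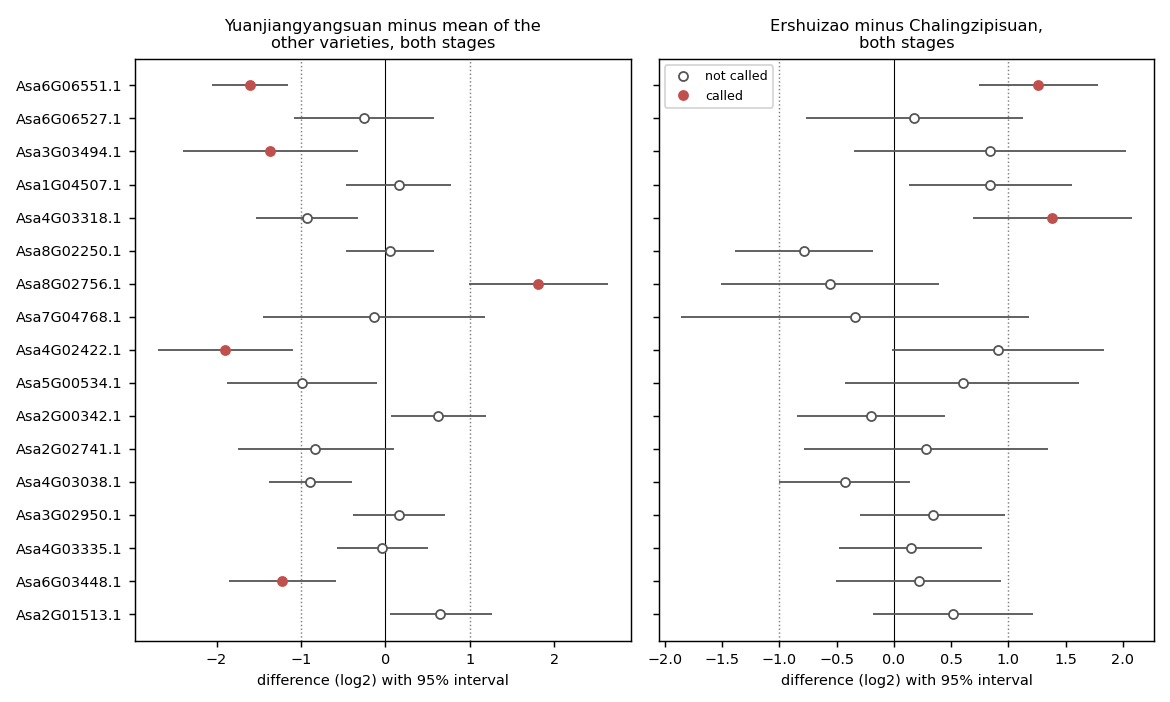
Difference between varieties over both stages (log2(FPKM + 0.5), horizontal axes) with its 95% interval from limma for each gene, as Yuanjiangyangsuan minus the mean of the others on the left and Ershuizao minus Chalingzipisuan on the right. Filled red points pass adjusted P under 0.05 and the dotted lines at 2-fold, 5 on the left, where the average holds the fall that chose the genes, and 2 on the right.

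Few of the genes that fell in Yuanjiangyangsuan stayed inside the limit of 0.5 in both other varieties. Of 1571 genes lower by 2 or more without overlap in Yuanjiangyangsuan, 1397 had a mean FPKM of at least 1 in both other varieties. Among these, 1311 were lower by 0.5 or more in both others, and 2 were higher by 0.5 or more in both. Inside 0.5 were 59 in Ershuizao and 35 in Chalingzipisuan, with 17 in both. A limit of 0.25 gave 3 genes in place of 17 and a limit of 1 gave 101. A difference inside the limit does not exclude a fall. The genes just inside the limit were *Asa2G01513.1*, at -2.0014, and *Asa6G03448.1*, at -2.0235. Just outside it were *Asa7G04319.1*, at -1.9921, and *Asa1G03657.1*, at -1.9911, which met all other conditions. *Asa1G03657.1* had FPKM values of 7.06, 4.35 and 9.76 under enlarging growth, against 24.6, 22.9 and 39.7 before enlargement. The same rule turned round found 31 genes that were higher under enlarging growth in Yuanjiangyangsuan alone. It found 1 lower and 1 higher gene for Ershuizao alone, and 0 lower and 3 higher genes for Chalingzipisuan alone. Fewer genes passed between stages in those varieties at all. At unadjusted P under 0.05 and above 2-fold, limma called 4315 genes lower in Yuanjiangyangsuan, 2266 in Ershuizao and 2066 in Chalingzipisuan. The genes tested numbered 27673, 29639 and 29056. At adjusted P under 0.05 the genes called lower were 4030, 768 and 49 in the same order. For Chalingzipisuan the rule also needed its outlying enlarging replicate 3 to clear every library before enlargement. The part of these limits in the numbers was not tested.

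The recovered lengths of the 17 genes were 220 to 1023 bases with a median of 489, against a median of 861 for the 22496 expressed genes. Multiples of 3, as coding lengths are, made up 15 of the 17 lengths, beside 21282 of the 22496. By the digit after Asa in the identifier, 4 of the genes carried a 4, 3 each a 2 and a 6, 2 each a 3 and an 8, and 1 each a 1, a 5 and a 7. Over all genes the share of a digit ranged from 8.56% for a 1 to 13.5% for a 7. No 2 of them had consecutive numbers. The closest were *Asa4G03318.1* and *Asa4G03335.1*, whose numbers are 17 apart, and *Asa6G06551.1* and *Asa6G06527.1*, 24 apart. Of the 34 genes with the next lower or higher number, 17 were tested in Yuanjiangyangsuan, where limma called 4 lower and 2 higher at unadjusted P, beside the 15.6% of all genes called lower and the 11.8% called higher. *Asa3G02951.1* carries the number after *Asa3G02950.1* and differed the other way, by 2.56 (log2), with a mean FPKM of 13.6 under enlarging growth and 2.25 before enlargement. Both neighbours of *Asa4G03038.1* were lower under enlarging growth, *Asa4G03037.1* by -1.33 and *Asa4G03039.1* by -1.10 (log2), and were outside the limit of the rule. The genes named in the study's text include day-length and gibberellin genes. Of the 14 named genes, 12 were tested in Yuanjiangyangsuan. Limma called 7 higher and 0 lower under enlarging growth at unadjusted P, beside 11.8% and 15.6% of all genes tested. Several of the named genes are given in the study as differing between the stages in these same libraries. The list was thus partly chosen on the stage difference, and nothing is read from the count.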

How the data were processed

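The 18 RNA libraries came from garlic bulbs of 3 varieties at 2 stages, with 3 individuals in each group. The authors aligned clean reads to the garlic reference genome with HISAT2, which the submitters' processing notes also name, and the deposited table holds an FPKM value for each gene in each library. The program that counted fragments is not given in the sources used here. FPKM values of a gene are whole multiples of the worth of 1 fragment. From these steps the fragments behind 99.7% of the values above 0 were recovered, and all 39933 genes above 0 in at least 2 libraries came out whole within 3e-05 plus 1e-08 of the number.

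The 17 genes, the lists and the tests were chosen with earlier results of these data known. Levels were log2 of the deposited FPKM plus 0.5, which understates changes of low genes. Differences were tested by limma 3.58.1 under R 4.3.3 (trend and robust moderation, FPKM of at least 0.5 in at least 3 libraries), a fit that was tested on simulated data. The study tested counts, whereas FPKM values are analysed here. The rule for named genes took the lowest stage differences, the highest levels, the first of each of the 3 kinds, the genes called between varieties and those at the limit, and the remaining genes of the 17 are named for completeness. Alternatives were other pseudocounts, filters and scalings, other limits of the rule, plain moderation, a replicate block, limma voom on the recovered fragments, 1 stage alone and each library left out. Python 3.11.15, pandas 2.3.3, scipy 1.17.1 and matplotlib 3.10.9 were used for tables and plots. No genome or annotation was used here.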

Additional observations from a re-analysis of the deposited data

How the results depend on the processing

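The number of genes that the rule finds depended on its settings. It was 44 with a pseudocount of 0.1, 11 with 1, 61 without a minimum FPKM, 8 with a minimum of 5, 3 with a limit of 0.25 and 101 with a limit of 1 in the other varieties, against 17. It ranged from 10 to 32 with each library left out, with 32, 27, 30 and 10 genes without enlarging replicate 1 and replicate 1 before enlargement of Yuanjiangyangsuan and enlarging replicates 1 and 3 of Chalingzipisuan. Only *Asa4G03318.1* was found under every alternative. The cause of these changes was not tested, beyond wider or narrower limits admitting more or fewer genes.

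The 3 kinds of genes numbered 7 to 8, 6 to 8 and 2 to 3. Between Ershuizao and Chalingzipisuan, 1 to 2 of the 17 genes were called higher with each library left out, 0 in enlarging libraries only and 0 in libraries before enlargement only, although *Asa6G06551.1* still differed by 1.16 and 1.36 and *Asa4G03318.1* by 1.29 and 1.48. Over all genes these numbers were 166 higher in enlarging libraries (323 in both stages) and 89 to 91 lower in single stages and 232 lower without enlarging replicate 3 of Chalingzipisuan (138 in both stages). Between Yuanjiangyangsuan and the others, 0 of the 17 genes were called higher and 11 lower under enlarging growth, beside 3142 and 4942 of all 33681 genes tested. Before enlargement 7 of the 17 were called higher and 0 lower, beside 3041 and 4809 of all genes. These libraries chose the genes, so that nothing is read from these counts. Over both stages, with each library left out, 1 of the 17 genes was called higher and 3 to 5 lower. The sign of the difference over both stages was reversed in a single stage for 13 of the 17 genes, a count that the selection on the stage difference largely sets. Among them, *Asa8G02250.1* (-1.08) under enlarging growth and *Asa3G03494.1* (0.07) and *Asa4G03335.1* (1.03) before enlargement were called in either fit. *Asa3G03494.1* missed the thresholds with limma voom (adjusted P = 0.0594) and in 5 of 18 fits without a library, and *Asa6G03448.1* with a pseudocount of 1 or quantile normalization (-0.87 and -0.99).

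Libraries of the same number at both stages deviated together with r of -0.252 to 0.141 and were not treated as pairs. With a replicate block 2 and 0 of the 17 genes were called higher and lower in Ershuizao and 1 and 4 in Yuanjiangyangsuan, as without it, and 4312 genes lower in Yuanjiangyangsuan between stages, against 4315. Depth limits *Asa7G04768.1* and *Asa6G03448.1*, with 21 and 26 fragments in Yuanjiangyangsuan before enlargement.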
